A study of Mus musculus with 16 samples.

Results

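The nuclear-encoded genes of the mitochondrial respiratory chain were examined in aortic valves of 4 groups of mice. Members were taken by name, as rows starting with Ndufa, Ndufb, Ndufc, Ndufs or Ndufv and a digit, with Uqcr, with Atp5, or with Cox and a digit from 4 to 8, together with Sdha, Sdhb, Sdhc and Sdhd. This gave 83 of the 20992 genes in the table: 37 of complex I, 4 of complex II, 8 of complex III, 17 of complex IV and 17 of complex V (ATP synthase). The complexes here follow the names, and some names do not follow function: Ndufa4 is now counted as a subunit of complex IV, and Atp5s and Atp5sl are older names of the assembly genes Dmac2l and Dmac2.

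All groups were on the C57BL/6J background. Controls (CON) are labelled as control mice with no more detail, the hypertension model (HT) carried transgenes for human renin and human angiotensinogen, the hypercholesterolaemia model (HC) was an ApoE knockout, and HC/HT combined both. The study set out to use 4 mice a group, and 15 libraries were used here: 4 CON (1 female, 3 males), 4 HT (2 females, 2 males), 4 HC (3 females, 1 male) and 3 HC/HT (2 females, 1 male). The labels list 16 libraries: the fourth of HC/HT was not analysed here, and it may be the 1 column of the table without a name, which was not used. The age of the mice, the promoters of the transgenes, and whether valves were pooled are not stated in the labels, so p-values measure only the spread between these libraries.

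The respiratory chain passes electrons from NADH, through complex I, and from succinate, through complex II, to ubiquinone, then through complex III and cytochrome c to oxygen at complex IV. The proton gradient built on the way drives ATP synthase. Except for complex II, the complexes join subunits from mitochondrial DNA with subunits from the nucleus, and several nuclear subunits of complex IV exist as a heart and skeletal muscle form beside a form made in most tissues. Many of the nuclear genes share promoter motifs for nuclear respiratory factors, among them NRF1.

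Promoter sequence is shown for 3 members whose upstream stretch holds the NRF1 motif more than once: Sdha, the member with the smallest p-value in the comparisons below, Cox6a1, the broadly expressed partner of a heart-type gene, and Ndufb4, a small membrane subunit of complex I. Each line gives the 200 bases before the RefSeq transcription start, 5′ to 3′ on the minus strand of GRCm38.p6, with matches to the NRF1 core motif in capitals. Sdha lies at chr13:74350241-74350440, Cox6a1 at chr5:115348959-115349158 and Ndufb4 at chr16:37654369-37654568.
Sdha: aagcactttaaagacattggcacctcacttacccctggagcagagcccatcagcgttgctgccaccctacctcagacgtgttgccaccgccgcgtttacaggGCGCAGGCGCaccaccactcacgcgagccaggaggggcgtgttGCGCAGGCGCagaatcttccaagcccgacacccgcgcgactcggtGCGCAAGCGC
Cox6a1: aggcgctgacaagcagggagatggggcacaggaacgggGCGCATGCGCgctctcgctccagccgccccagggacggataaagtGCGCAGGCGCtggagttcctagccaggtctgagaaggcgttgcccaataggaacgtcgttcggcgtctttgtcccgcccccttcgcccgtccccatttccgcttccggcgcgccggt
Ndufb4: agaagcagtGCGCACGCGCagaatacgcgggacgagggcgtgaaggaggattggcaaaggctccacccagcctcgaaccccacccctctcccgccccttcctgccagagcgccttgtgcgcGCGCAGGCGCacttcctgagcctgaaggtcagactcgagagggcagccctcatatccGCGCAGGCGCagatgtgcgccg

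The motif was searched on both strands of the RefSeq window of each gene, from 250 bases before the start to 50 after it, which was at hand for 69 of the 83 members. It was found in 17 of these 69 genes (24.64%), against 1402 of 27025 genes with a window (5.19%). Sdha and Ndufb4 had 3 matches each and Cox6a1 had 2. The YY1 motif AAGATGGCG was found in 8 of 69 members (11.59%; 1.64% of all genes), the ETS motif CCGGAAGT in 5 (7.25%; 4.31%) and the estrogen-related receptor motif TCAAGGTCA in 2 (2.9%; 0.47%). In all, 28 members held at least 1 of the motifs, and a match describes the letters only.

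Levels are given in units, the deposited normalised count times 1 common factor that sets the median library total to 1000000. Because the deposited totals were already equal, between 10207928 and 10210305, the sequencing depth is unknown. Between 16006 and 17608 genes lay above 0 in a library, and 4 very abundant rows, 1 of them the ribosomal RNA precursor, took 32.4% to 62.7% of the total. Apoe, the gene knocked out in HC and HC/HT, stood at 1012, 1014, 620 and 398 units in CON and at 609, 318, 56.6 and 384 in HT. It stood at 12.3, 6.95, 5.98 and 2.16 in HC and at 9.80, 7.54 and 5.98 in HC/HT. Every knockout library lay below every other one (log2 difference -5.81, exact permutation test, two-sided, p = 0.000311). Valve interstitial and endothelial markers were above 0 in all libraries. Of 9 brown and white fat markers, Ucp1, Lep and Adrb3 were under 1 unit in all libraries. Fabp4, Cidec and Cfd of the same list reached 1 unit in 4 or more libraries.

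All members but 1 were expressed widely enough to be tested. The exception was Cox7b2, a testis form of a complex IV subunit, listed at 0.196 units in CON replicate 2 and at 0 elsewhere. Per kilobase of transcript, ATP synthase genes had the highest median mean level, at 51.0 units per kb, followed by complex IV at 39.5, complex III at 24.4, complex II at 22.4 and complex I at 18.5. The ATP synthase beta subunit gene Atp5b stood highest of all, at 151 units per kb. Cox6a1 led complex IV with 96.3, the hinge protein gene Uqcrh led complex III with 90.7, Ndufa4 led the Nduf genes with 55.3, and Sdha, the flavoprotein of succinate dehydrogenase, led complex II with 29.1. The lowest gene of each complex per kilobase was Ndufa4l2, a hypoxia-induced relative of Ndufa4, at 0.699 among the Nduf genes, the membrane anchor gene Sdhc at 7.14 in complex II, the core protein gene Uqcrc1 at 8.97 in complex III, the testis form Cox6b2 at 2.91 in complex IV and Atp5s at 4.10 in complex V. Many of these genes have processed pseudogenes and close relatives, and no label says how reads that fit several places were counted.

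The members varied together from library to library, within every group. The 83 members summed to 3918, 3167, 1927 and 1169 units in the 4 CON libraries and to 2762, 3669, 743 and 940 in the 4 HT libraries. They summed to 3769, 3414, 3227 and 1409 in HC and to 2362, 2763 and 1081 in HC/HT. Each group held libraries from the high and from the low end of this range, and the groups overlapped widely. In every group replicates 1 and 2 lay above replicate 3 and, outside HC/HT, replicate 4, for a reason that was not tested. In bulk tissue, fewer cells rich in these transcripts and less of the transcripts per cell cannot be told apart.

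The same libraries were low for nearly all members. Of the 82 members tested, 72 were lowest of their group in CON replicate 4, 77 in HC replicate 4 and 73 in HC/HT replicate 3. In HT, 61 were lowest in replicate 3 and 19 in replicate 4. For 75 members the lowest of all 15 libraries was 1 of these 5, which were singled out by the same members' values. All genes were below their means there too. The median log2 deviation of all genes was -0.30, -0.51, -0.04, -0.19 and -0.11 in CON replicate 4, HT replicates 3 and 4, HC replicate 4 and HC/HT replicate 3. For members it was -0.97, -1.42, -1.17, -0.65 and -0.87. In CON, HC and HC/HT the lowest library was also the one with the largest share of the 4 most abundant rows, at 57.8%, 54.1% and 54.3%. HT replicates 2 and 3 had nearly the same share, 62.2% and 62.7%, with members at 3669 and 743 units. In HT both female libraries lay above both males, while the only CON female and the only HC male were second of 4 in their groups. The part of these shares and of sex in the spread was not tested.

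**Figure D1:**
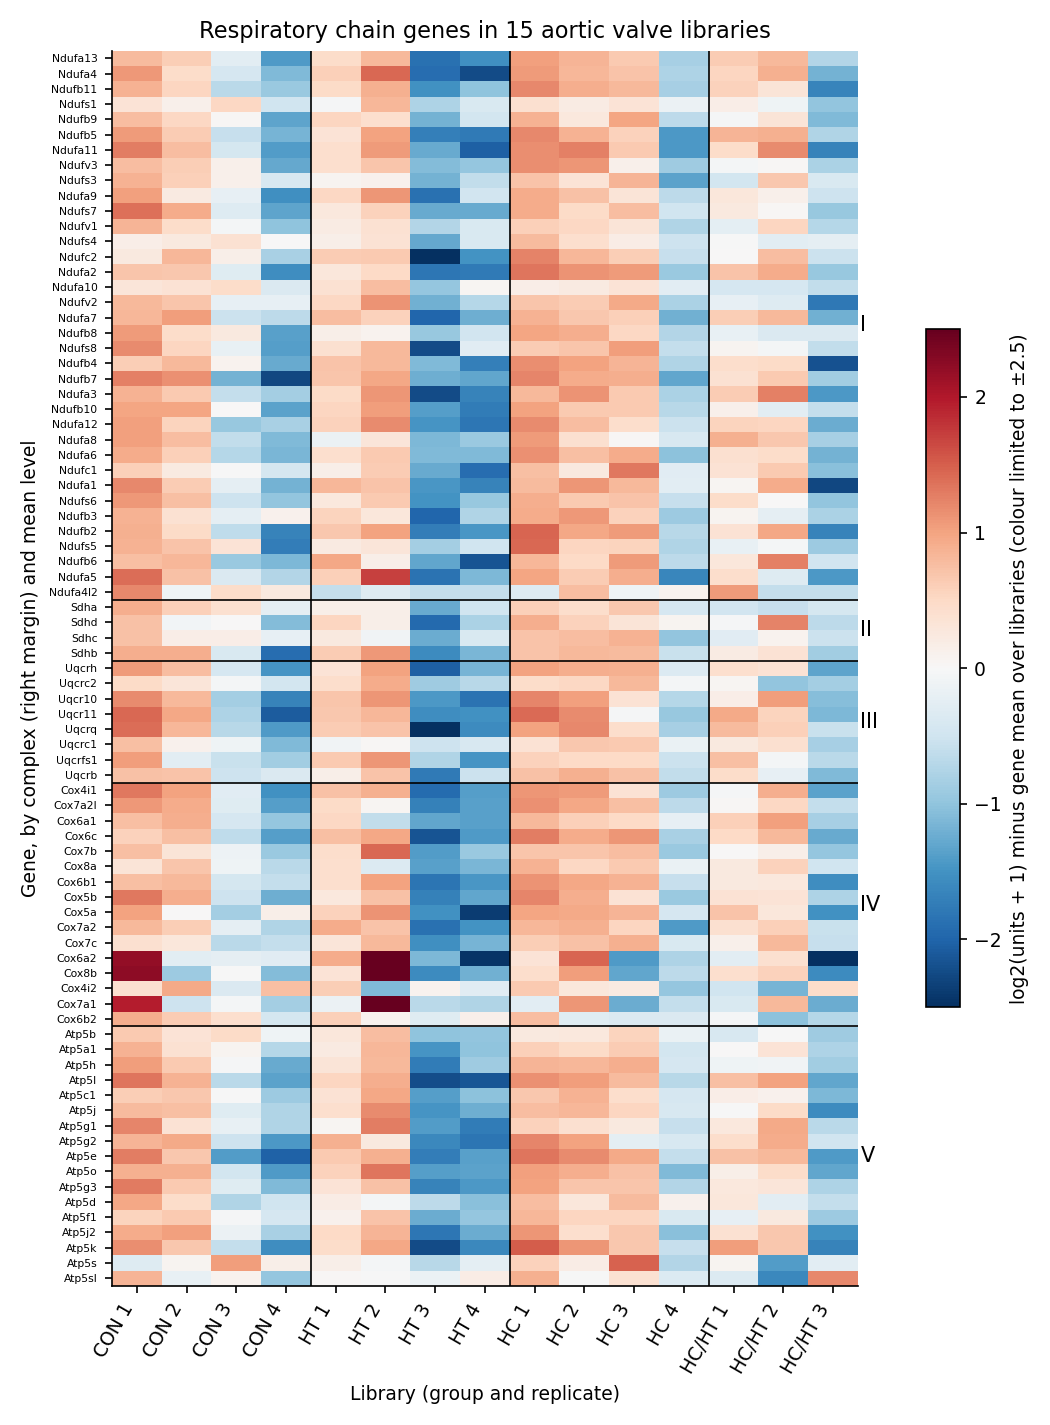
Heat map of 81 of the 82 members tested (rows, by complex and then by mean level) in 15 libraries (columns, by group and replicate), coloured by log2(units + 1) minus the gene's mean over libraries, with the colour limited to ±2.5. CON 4, HT 3, HT 4, HC 4 and HC/HT 3 are blue for most genes of every complex, and Cox6a2, Cox8b and Cox7a1 are red in CON 1 and HT 2.

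Cox4i1, the ubiquitous regulatory subunit of cytochrome c oxidase, shows the pattern in 1 gene. Its level was 132, 107, 43.0 and 17.7 units in CON, 88.2, 98.8, 13.1 and 19.7 in HT, 115, 111, 67.7 and 27.5 in HC, and 51.3, 99.6 and 20.1 in HC/HT. The highest library was 10.1 times the lowest, and each group spanned most of that range. Ndufa13, the complex I gene of highest mean, ran from 11.1 to 54.5 units in CON, 7.74 to 54.8 in HT, 17.0 to 64.5 in HC and 18.3 to 55.0 in HC/HT. Over the 80 members above 0 in every library, the median ratio of highest to lowest library was 8.95, and 69 of them reached 5 or more. Atp5b had the smallest ratio, 3.43.

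The core subunit genes given next varied over a narrower range than the median member. The highest library was 3.71 times the lowest for Ndufs1, 3.94 times for Ndufv1, 4.10 times for Uqcrc1, 5.22 times for Atp5a1, 5.27 times for Atp5c1 and 7.26 times for Uqcrfs1. In complex I, Ndufs1 ran from 17.3 to 35.9 units in CON, 14.1 to 45.1 in HT, 22.5 to 33.3 in HC and 12.1 to 27.9 in HC/HT. Ndufv1, which binds NADH, ran from 8.03 to 31.6, 9.99 to 22.8, 9.89 to 26.6 and 10.2 to 25.4 units in the same order of groups. In both genes every group overlapped every other.

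In complex III, the Rieske iron-sulfur protein gene Uqcrfs1 ran from 6.27 to 26.5 units in CON, 3.82 to 27.7 in HT, 8.23 to 18.9 in HC and 7.35 to 21.5 in HC/HT. Uqcrc1 ran from 5.88 to 24.1, 9.40 to 14.1, 12.2 to 22.8 and 7.35 to 18.5 units in the same order. Its HT values fell in the narrowest range of the 4 groups, inside that of CON. In ATP synthase, Atp5a1, the alpha subunit gene, ran from 67.0 to 204 units in CON, 39.1 to 198 in HT, 79.7 to 172 in HC and 64.7 to 140 in HC/HT, and Atp5c1, the gamma subunit gene of the central stalk, from 24.8 to 75.9, 17.6 to 93.0, 35.0 to 87.3 and 20.96 to 52.7 units.

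The c subunit of the rotor ring is made from Atp5g1, Atp5g2 and Atp5g3, which encode the same mature protein. Per kilobase their mean levels were 17.7, 67.3 and 43.3 units. Atp5g1 ran from 23.5 to 94.3 units in CON and from 11.2 to 98.2 in HT, Atp5g2 from 11.3 to 62.9 and from 8.33 to 60.2, and Atp5g3 from 11.7 to 65.9 and from 7.54 to 44.0. Among the complex IV subunits without a tissue form, Cox6c ran from 14.3 to 66.0 units in CON, 7.93 to 77.1 in HT, 21.8 to 96.7 in HC and 15.7 to 69.1 in HC/HT. Cox5a ran from 9.99 to 38.7, 2.84 to 41.8, 13.7 to 38.4 and 5.98 to 31.6 units. Cox7a2l, named after Cox7a2, ran from 20.6 to 117, 16.2 to 76.5, 34.5 to 121 and 36.0 to 79.2 units.

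The spread within groups exceeded that of most genes. The standard deviation of log2(units + 1) between libraries of a group had a median of 0.929 over the 82 members and of 0.520 over all 15004 genes tested. Among genes with a mean of 10 units or more, 70 of 71 members lay above the median of the 8106 such genes, 0.471. With median-of-ratios scaling, which sets each library by its typical gene, the medians were 0.852 and 0.444. The first principal component took 81.9% of the members' variance and 31.1% of that of all genes. At the median, 14.7% of the members' sum of squares lay between the 4 groups, against 27.6% for all genes. Values without any group difference also leave a share between groups, and the members vary together, so these medians only describe the data. Sdha was at the upper end of the members with 46.7%, and Cox8b at the lower end with 1.23%.

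Other mitochondrial and metabolic gene lists varied less. The highest library exceeded the lowest 5.27-fold in the summed level of the members. The ratio was 3.47 for 17 electron carrier genes, 3.30 for 40 mitochondrial ribosomal proteins and 2.93 for 39 complex assembly factors. It was 2.82 for 17 glycolysis genes, 2.62 for 16 genes of the citric acid cycle and 1.87 for 14 regulators of mitochondrial biogenesis such as Ppargc1a and Tfam. Their median within-group standard deviations ran from 0.500 to 0.722. Most of these lists also varied together. The first principal component took 74.5% of the variance of the citric acid cycle genes, 68.4% of mitochondrial ribosomal proteins and 64.9% of glycolysis. It took 61.7% of electron carriers, 50.2% of assembly factors and 26.8% of biogenesis regulators, beside 81.9% of the members. Subunits encoded by mitochondrial DNA were not analysed here.

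Members with short transcripts varied most. Their principal transcripts in GENCODE M21 had a median length of 763 bases (81 members), against 2978.5 bases for 12804 of the genes tested. The 41 members at or under 763 bases had a median within-group standard deviation of 1.05 on the log2 scale, and the 40 longer ones 0.845. Mean levels were alike in the 2 sets, with medians of 21.7 and 21.3 units. Across members, length and spread had a Spearman rho of -0.56, and across all genes -0.34. These are correlations across genes measured in the same 15 libraries, and genes are not independent replicates.

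Named genes follow that order only in part. Among the least variable were the long transcripts of Ndufa10 (0.442), Ndufs4 (0.493), Sdha (0.493), Atp5b (0.522) and Ndufs1 (0.528), the last a core iron-sulfur subunit of complex I. Among the most variable were the short transcripts of Ndufa11 (1.37), Uqcr11 (1.35), Atp5k (1.32) and Atp5e (1.31). Cox8a, the broadly expressed partner of Cox8b, was short and yet had 0.570. Within complex II, the long transcripts of Sdhc (3171 bases) and Sdha (2900 bases) had 0.647 and 0.493, and the shorter ones of Sdhd (1231 bases) and Sdhb (1142 bases) had 0.807 and 1.03.

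**Figure D2:**
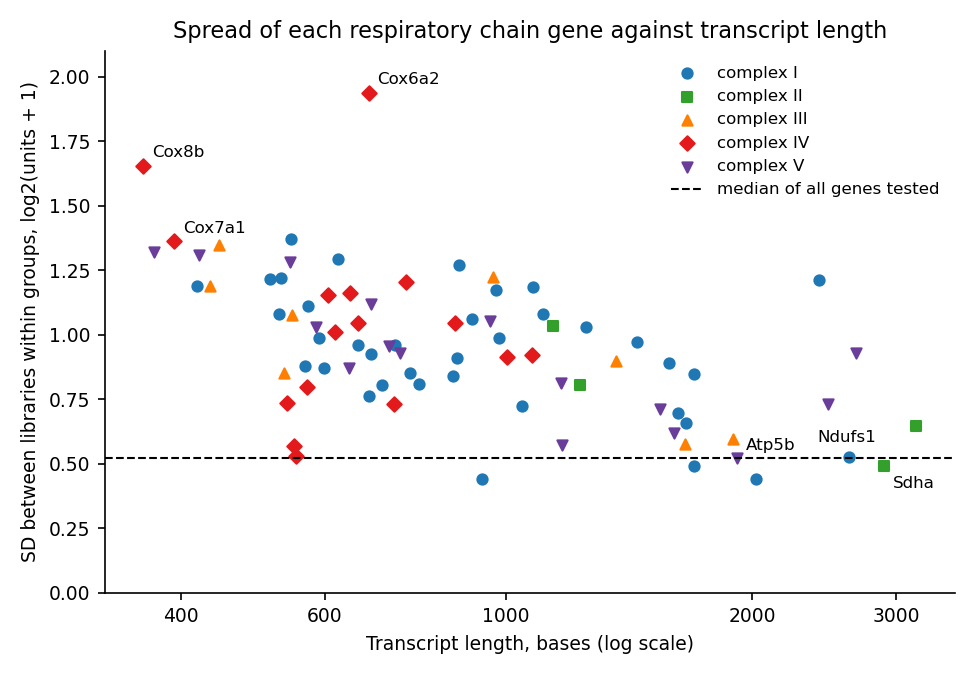
Scatter plot of 81 members with transcript length in bases (x, log scale) and the standard deviation of log2(units + 1) between libraries within groups (y), with a symbol for each complex and a dashed line at the median of all genes tested, 0.520. Short transcripts lie higher on the whole, Cox6a2 stands apart at 1.94, and Sdha and Atp5b lie close to the line.

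The heart and muscle forms of complex IV subunits followed a partly different order of libraries. Cox6a2 stood at 31.6, 4.90, 5.09 and 4.80 units in CON, 12.4, 117, 2.25 and 0.294 in HT, 8.03, 18.4, 1.67 and 3.13 in HC, and 4.90, 8.33 and 0.196 in HC/HT. Cox8b stood at 13.0, 0.588, 1.96 and 0.392 in CON, 2.74, 26.6, 0 and 0.294 in HT, 3.04, 5.09, 0.196 and 0.882 in HC, and 2.94, 3.43 and 0 in HC/HT. Cox7a1 stood at 10.1, 0.980, 1.76 and 0.588 in CON, 1.57, 19.4, 0.784 and 0.686 in HT, 1.37, 5.09, 0.196 and 0.882 in HC, and 1.18, 4.02 and 0.196 in HC/HT. For all 3 genes HT replicate 2 was highest, CON replicate 1 ranked 2 and HC replicate 2 ranked 3. The 3 genes lie on chromosome 7 of GRCm38.p6, Cox7a1 at chr7:30184171-30186030, Cox6a2 at chr7:128205435-128206366 and Cox8b at chr7:140898942-140900446.

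Markers of cardiomyocytes were high in some of the same libraries, but their order differed in others. Of 20 cardiomyocyte markers, among them Myh6 and Tnnt2, all were tested and 4 were at 0 in some library. Their sum was 4181, 588, 1654 and 802 units in CON, 1515, 13275, 710 and 392 in HT, 824, 1597, 222 and 610 in HC, and 340, 410 and 183 in HC/HT. HT replicate 2 and CON replicate 1 ranked 1 and 2 in this sum too, and HC replicate 2 ranked 4. However, HC/HT replicate 2 ranked 11 in the sum and 5, 4 and 4 for Cox6a2, Cox7a1 and Cox8b. In the same order of genes, HC/HT replicate 1 ranked 13 in the sum and 8, 8 and 6, and CON replicate 3 ranked 3 and 7, 5 and 8. The part of cardiomyocyte RNA in the levels of Cox6a2, Cox8b and Cox7a1 was not tested.

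The forms made in most tissues shared that order only in part. Cox6a1 stood at 80.8, 89.5, 35.3 and 23.8 units in CON, 68.3, 30.5, 18.6 and 17.8 in HT, 84.4, 72.4, 67.2 and 41.2 in HC, and 71.7, 97.0 and 26.3 in HC/HT. HT replicate 2, highest for Cox6a2, was 11th of 15 for Cox6a1, where CON replicate 1 ranked 4 and HC replicate 2 ranked 5. In the same order of libraries, the ranks were 5, 4 and 2 for Cox7a2 and 11, 7 and 5 for Cox8a. Per kilobase, Cox6a2 made up 0.620% to 76.4% of Cox6a1 and Cox6a2 together, with a median of 7.40%, and the highest share was that of HT replicate 2. The range was 1.15% to 50.5% for Cox7a1 beside Cox7a2 and 0% to 59.7% for Cox8b beside Cox8a. Cox4i2, a form known from lung and from hypoxia, made up 1.01% to 27.4% beside Cox4i1, with a median of 5.56%.

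**Figure D3:**
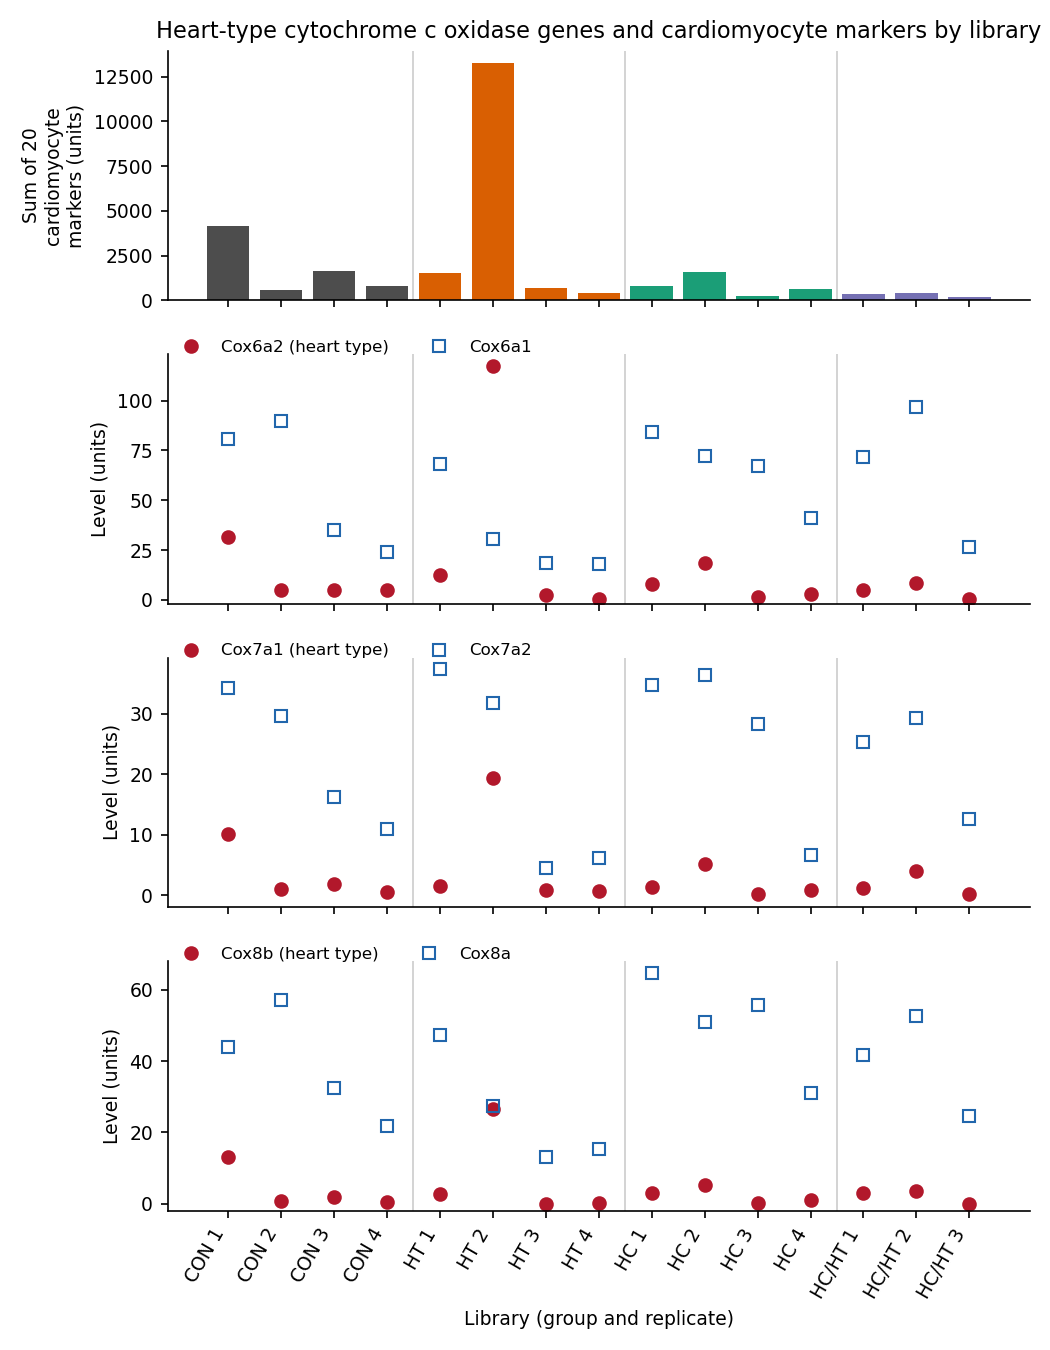
Levels in units by library (x) of the sum of 20 cardiomyocyte markers (bars, top) and of the heart-type genes Cox6a2, Cox7a1 and Cox8b (filled circles) beside Cox6a1, Cox7a2 and Cox8a (open squares). HT 2 has the tallest bar, at 13275 units, and the highest value of each heart-type gene.

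No member passed in any of 8 comparisons of the groups, by limma with Benjamini-Hochberg adjustment over all 15004 genes at an adjusted p under 0.05. The comparisons were fitted on log2(units + 1) with group and sex as terms, and differences are given with their standard error (SE). Part of the differences is common to all genes: going to median-of-ratios scaling moved the median of all genes by 0.41 in HT against CON and by 0.28 in the transgenic groups against the others. The members are therefore read beside the median of all genes on the same scale.

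The transgenic groups together (HT and HC/HT) had lower levels of most members than CON and HC together, without a call. Of 82 members 80 had a negative difference on the deposited scale, where 84% of all genes did, and all but 11 had one with median-of-ratios scaling. The median difference was -0.52 for members and -0.30 for all genes, and with median-of-ratios scaling -0.21 and -0.01. None passed (0 of 82), where 0.0133% of all genes passed, and 9 had an unadjusted p under 0.05 (11% of members, 16.7% of all genes). The median SE of a member was 0.43. The members' median was -0.34 without HT replicate 3 and -0.24 without HC/HT replicate 3. Array weights give libraries that the model describes poorly less weight. With them 11 of 82 members passed, all lower, where 2089 of all 15004 genes passed, a similar share. By complex, the median difference was -0.50 in complex I, -0.50 in complex II, -0.46 in complex III, -0.52 in complex IV and -0.62 in complex V on the deposited scale.

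Markers of several other cell types were also lower in the transgenic groups, again without a call. Among all genes, 84% had a negative difference and 16.7% an unadjusted p under 0.05, with a median of -0.30 (-0.01 with median-of-ratios scaling). Endothelial and melanocyte markers were mixed: Nos3 (0.46), Pecam1 (0.04), Cdh5 (0.03) and Tyrp1 (0.15) were positive, and the others of those lists negative. All 4 erythroid genes tested, which included the haemoglobin genes Hba-a2, Hbb-bs and Hbb-bt, had a negative difference with an unadjusted p under 0.05 in limma, with a median of -2.93 (-2.61 with median-of-ratios scaling). Their sum ran from 174 to 5604 units in CON, 7.25 to 393 in HT, 237 to 12149 in HC and 101 to 479 in HC/HT, and none of the 4 was at 0 in any library. Of 9 macrophage markers 6 had an unadjusted p under 0.05 and all were negative (median -0.93, and -0.60 with median-of-ratios scaling). Their sum ran from 882 to 1418 units in CON, 148 to 1420 in HT, 2096 to 4030 in HC and 1816 to 2710 in HC/HT. Of 10 valve interstitial markers 6 had an unadjusted p under 0.05 and all were negative (median -0.66, and -0.33 with median-of-ratios scaling), with sums of 8731 to 20861, 6271 to 17139, 7524 to 20896 and 7386 to 10710 units in the same order of groups. No macrophage or interstitial marker was at 0 in any library. All 10 smooth muscle markers were negative, from -1.50 (Myl9) to -0.02 (Myh11). Of these, Myl9 and Mylk (-1.15) had an unadjusted p under 0.05 in limma. Of 20 cardiomyocyte markers all but Nppa (0.28) were negative, from -1.22 (Myl2) to -0.05 (Sln), and none had an unadjusted p under 0.05. The part of these cells in the members' lower levels was not tested.

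Sdha had the smallest p among the members in this comparison. It lies at chr13:74322255-74350240 of GRCm38.p6, and its protein oxidises succinate and links the citric acid cycle to the chain. Its level was 146, 119, 103 and 66.4 units in CON, 85.6, 85.8, 31.7 and 54.8 in HT, 119, 106, 125 and 58.1 in HC, and 55.4, 51.6 and 57.0 in HC/HT. All 3 HC/HT libraries lay below all 4 CON and all 4 HC libraries, whereas HT overlapped both. The mean of the 4 CON libraries was 109 ± 33.3 units (SD), that of the 4 HT libraries 64.5 ± 26.3, that of the 4 HC libraries 102 ± 30.3 and that of the 3 HC/HT libraries 54.7 ± 2.77. The difference for the transgenic groups was -0.84 ± 0.24 (SE), with an adjusted p of 0.125 in limma, and -0.51 with median-of-ratios scaling (limma adjusted p 0.401). Without HC replicate 4, the lowest HC library, it was -0.99 with an adjusted p of 0.0266 in limma, past the threshold. Among the other subunits of complex II, the difference was -0.60 ± 0.29 for Sdhc, -0.40 ± 0.48 for the iron-sulfur subunit gene Sdhb and -0.39 ± 0.35 for the membrane anchor gene Sdhd.

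Atp5b followed Sdha. Its level was 422, 339, 375 and 249 units in CON, 325, 457, 133 and 136 in HT, 319, 324, 395 and 239 in HC, and 204, 266 and 145 in HC/HT. HT held both the highest and the lowest library, so the groups overlapped. The difference for the transgenic groups was -0.65 ± 0.25, with an adjusted p of 0.225 in limma. Atp5f1, a peripheral stalk subunit of ATP synthase, differed by -0.64 ± 0.28 (limma adjusted p 0.256). Uqcrc2, a core protein of complex III, differed by -0.60 ± 0.27 (limma adjusted p 0.27). The other members with an unadjusted p under 0.05 were Atp5d, Cox8a, Ndufv2, Ndufb3 and Sdhc, all negative, at -0.56 to -0.77.

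**Figure D4:**
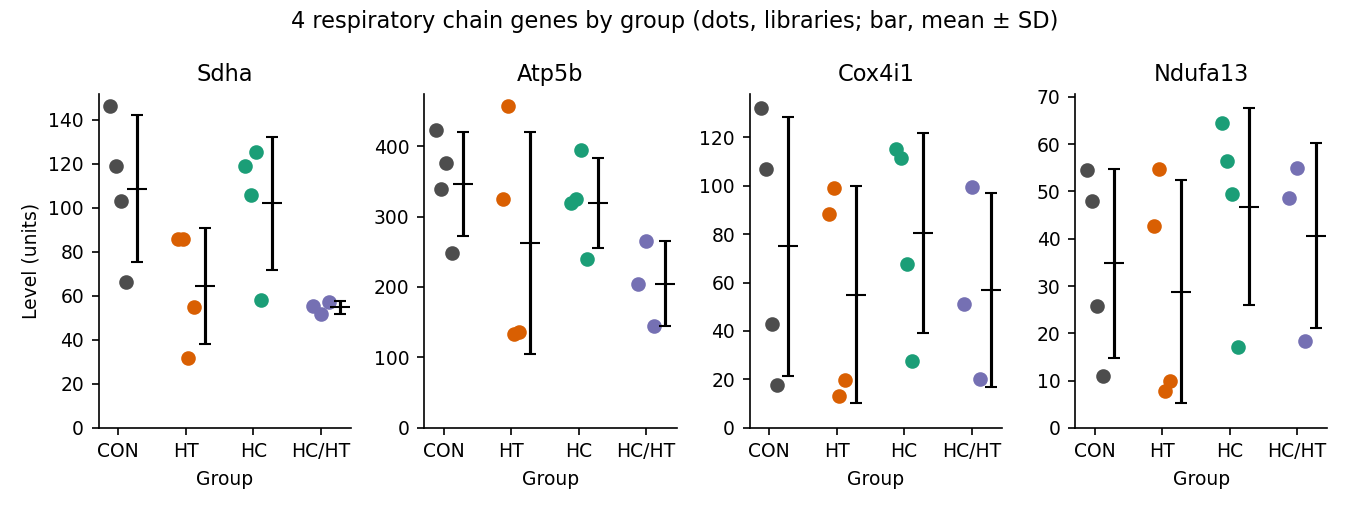
Levels in units of Sdha, Atp5b, Cox4i1 and Ndufa13 by group, with a dot for each library and a bar at the mean ± SD. The 3 HC/HT libraries of Sdha lie between 51.6 and 57.0 units, below every CON and HC library, while for Cox4i1 and Ndufa13 the groups overlap from end to end.

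Hypertension alone was compared with control by HT against CON. No member passed (0 of 82, where 0% of all genes passed), and 3 had an unadjusted p under 0.05 (3.66% of members, 12.8% of all genes). The differences were -0.88 ± 0.33 for Sdha, -0.80 ± 0.36 for Cox8a and -0.80 ± 0.38 for Ndufa4l2, with adjusted p of 0.359, 0.378 and 0.388 in limma. Ndufa4l2 was the only member whose groups did not overlap (4.15% of all genes were lower without overlap). It stood at 2.45, 0.392, 1.08 and 0.784 units in CON and at 0, 0.196, 0 and 0 in HT, so it was near the bottom of the scale in both. In HC it stood at 0.196, 1.57, 0.392 and 0.588 units and in HC/HT at 2.15, 0 and 0. The median of the members was -0.59, beside -0.42 for all genes, and 79 of 82 were negative, as were 86.7% of all genes. With median-of-ratios scaling it was -0.16, beside -0.01, and 27 were positive. The members' median was -0.28 without CON replicate 1, -0.21 without HT replicate 3 and -0.35 without HT replicate 4. With array weights Sdha passed (-1.02, limma adjusted p 0.0489), among 412 genes in all. With only CON and HT in the fit Atp5l, a membrane subunit gene of ATP synthase, passed (-1.30, limma adjusted p 0.0416), among 217 genes in all.

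The combined model was compared with control, with HC and with HT. In HC/HT against CON no member passed (0 of 82, where 0.467% of all genes passed), and 5 had an unadjusted p under 0.05 (6.1% of members, 11.4% of all genes): Sdha, Atp5b, Cox6b2, Ndufv2 and Ndufa10, all negative. Sdha differed by -1.06 ± 0.37, Atp5b by -0.96 ± 0.39 and Cox6b2 by -1.01 ± 0.46, with adjusted p of 0.235, 0.33 and 0.408 in limma. With array weights Sdha passed (-1.13, limma adjusted p 0.031), among 726 genes in all. Sdha and the complex I subunits Ndufa10 and Ndufs4 were lower in HC/HT without overlap (3 of 82 members; 7.66% of all genes). Ndufa10 stood at 11.95, 11.95 and 10.4 units in HC/HT and at 20.4, 21.3, 22.8 and 12.4 in CON. The median difference of members was -0.41, beside -0.20 for all genes, and it turned to 0.04 without HC/HT replicate 3, the library of lowest members.

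In HC/HT against HC no member passed (0 of 82, where 0% of all genes passed), and 2 had an unadjusted p under 0.05 (2.44% of members, 4.41% of all genes). Uqcrc2 differed by -1.01 ± 0.39, Sdha by -0.80 ± 0.35 and Ndufv2, a flavoprotein subunit of complex I, by -1.11 ± 0.53, all with a limma adjusted p of 0.984. Uqcrc2 stood at 45.8, 48.3, 59.2 and 32.0 units in HC and at 34.6, 16.3 and 17.9 in HC/HT, overlapping at HC replicate 4 and HC/HT replicate 1. Sdha and Ndufa10 were lower without overlap (4.53% of all genes). The median difference of members was -0.48, beside -0.18 for all genes, and it turned to 0.10 without HC/HT replicate 3.

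In HC/HT against HT no member passed (0 of 82, where 0.373% of all genes passed), and 0 had an unadjusted p under 0.05 (8.71% of all genes). Cox6b2 differed by -0.73 ± 0.44, Cox6a1 by 0.87 ± 0.52 and Ndufa10 by -0.60 ± 0.38, with limma adjusted p of 0.675 to 0.688. The median difference of members was 0.13, beside 0.21 for all genes, and it turned to -0.13, beside -0.01, with median-of-ratios scaling. It was also negative without HT replicate 3 (-0.15), without HT replicate 4 (-0.04) or without HC/HT replicate 1 (-0.41).

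The knockout groups showed no called difference in these genes. In HC against CON no member passed (0 of 82, where 0.167% of all genes passed), and 0 had an unadjusted p under 0.05 (4.01% of all genes). The smallest p belonged to Cox6b2 (-0.49 ± 0.44), Uqcrc1 (0.47 ± 0.41) and Atp5b (-0.34 ± 0.37), all with a limma adjusted p of 1. The median difference was 0.08, beside -0.02 for all genes, and the median SE of a member was 0.62. The members' median turned negative on leaving out CON replicate 4 (-0.22), HC replicate 1 (-0.01), HC replicate 2 (-0.45) or, through the shared sex term, HC/HT replicate 1 (-0.08) or 3 (-0.02).

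With both knockout groups against both intact groups, no member passed (0 of 82, where 1.47% of all genes passed), and 0 had an unadjusted p under 0.05 (9.84% of all genes). The differences were -0.61 ± 0.32 for Cox6b2, -0.42 ± 0.27 for Ndufa10 and 0.38 ± 0.28 for Cox8a, with limma adjusted p of 0.556, 0.716 and 0.77. The median was 0.09 for members and 0.09 for all genes, and it turned to -0.03, beside -0.01, with median-of-ratios scaling. It also turned negative without CON replicate 4 (-0.01), HT replicate 3 (-0.02), HC replicate 2 (-0.16) or HC/HT replicate 1 (-0.22). Among markers of other cells, the macrophage genes Trem2 (2.76), Lyz2 (2.13), Cd68 (2.04) and C1qb (1.64) rose in the same comparison and passed in limma. The other macrophage markers did not pass: C1qc (1.25), C1qa (1.08), Csf1r (0.82), Mrc1 (0.18) and Cd163, which was negative (-0.75). The smooth muscle gene Myl9 fell by 2.76 and the striated muscle gene Tcap fell by 1.94 on the log2 scale. The part of these cells in the members' values was not tested.

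The interaction, which asks whether the knockout and the transgenes together differ from the sum of each alone, gave no call among members (0 of 82, where 0% of all genes passed), and 0 had an unadjusted p under 0.05 (1.38% of all genes). Its estimates were -0.81 ± 0.54 for Uqcrc2, 0.60 ± 0.56 for Ndufa4l2 and 0.76 ± 0.71 for Cox6a1, all with a limma adjusted p of 1. For Sdha it was 0.08 ± 0.49. The median of members was 0.04, beside 0.23 for all genes, and -0.22, beside -0.01, with median-of-ratios scaling. It was negative without CON replicate 1 (-0.31), CON replicate 2 (-0.0044), HT replicate 3 (-0.29), HT replicate 4 (-0.18), HC replicate 4 (-0.32), HC/HT replicate 1 (-0.38) or HC/HT replicate 2 (-0.10). With SEs of 0.49 to 2.01 among members, interactions of the size of the differences above were not detectable.

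**Figure D5:**
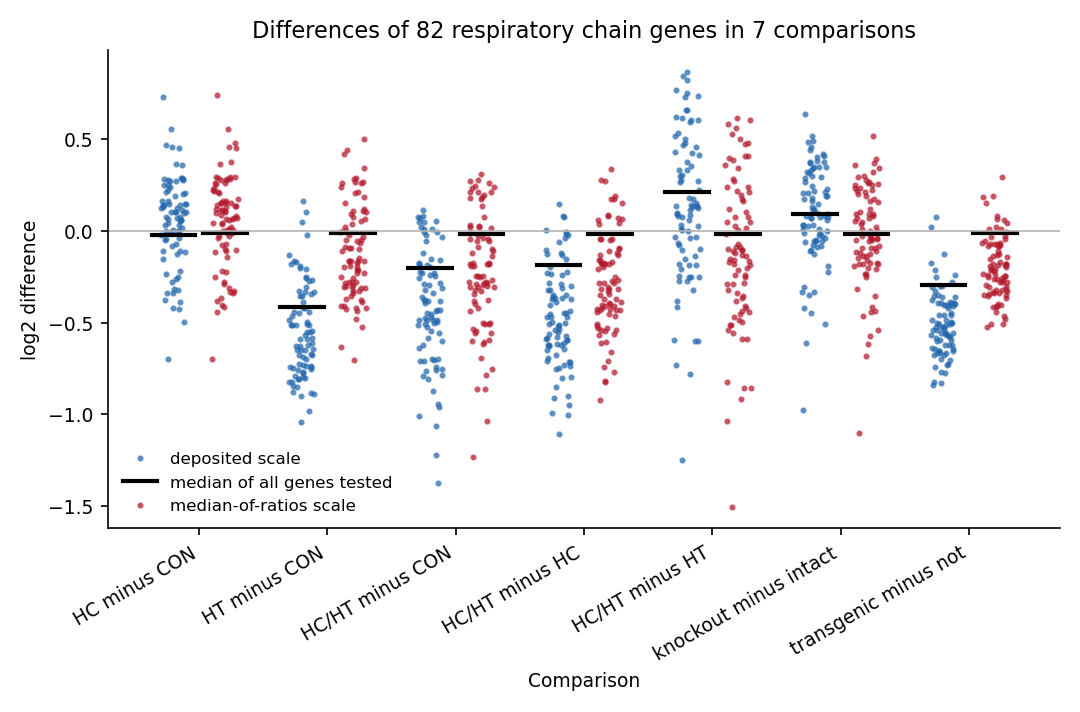
Log2 difference of each of the 82 members (dots) in 7 comparisons of groups, on the deposited scale (blue) and with median-of-ratios scaling (red), with a black bar at the median of all genes tested. The cloud lies below the bar for the transgenic groups against the others (medians -0.52 and -0.30), and about the bar for knockout against intact (0.09 and 0.09).

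Genes around the respiratory chain gave no call either. In the 8 comparisons, 0 of 39 complex assembly factors, 0 of 17 electron carrier genes, 0 of 16 citric acid cycle genes, 0 of 14 biogenesis regulators, 0 of 40 mitochondrial ribosomal proteins and 0 of 17 glycolysis genes tested passed in limma. At an unadjusted p under 0.05, the transgenic groups against the others gave 9, 3, 2, 1, 5 and 3 of them, in that order. These are 23.1%, 17.6%, 12.5%, 7.14%, 12.5% and 17.6% of the lists, against 16.7% of all genes. The median difference in that comparison was -0.35 for assembly factors, -0.39 for electron carriers, -0.40 for the citric acid cycle, -0.26 for biogenesis regulators, -0.43 for mitochondrial ribosomal proteins and -0.43 for glycolysis. The members, at -0.52, and all genes, at -0.30, are the values to set beside them. In the same comparison no marker of cardiomyocytes, smooth muscle, fat, macrophages, endothelium, melanocytes, erythroid cells or valve interstitial cells passed.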

How the data were processed

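Aortic valve RNA was measured in 15 named libraries, and 1 further column of values without a name, which may be the fourth HC/HT library of the labels, was not used. Per the labels' protocols, 1 ng of total RNA was amplified into cDNA (Nugen Ovation RNA-Seq v2) before KAPA hyper prep libraries. Bowtie 1.0.1, SAMtools 0.1.9, FastQC 0.11.2, edgeR and mm10 appear in the submitters' processing notes, without the normalisation step. The deposited values, whole numbers with equal totals, are treated as a score that the authors normalised, so no count test was run.

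All values were multiplied by 0.0979537. A gene was tested if 4 or more libraries held 1 unit or more (15004 genes). In R 4.3.3, limma 3.58.1 (eBayes with trend and robust) fitted log2(units + 1) with group and sex in 1 model over all libraries, two-sided, with Benjamini-Hochberg adjustment over all genes tested. Differences of low genes are understated by the pseudocount of 1. Scripts were tested on simulated data. The 8 comparisons were HC, HT and HC/HT against CON, HC/HT against HC and HT, the interaction, and the 2 pooled comparisons. Comparisons that share CON are not independent.

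Of the members, 80 matched a current mouse symbol and 3 an older one (Atp5f1, Atp5s, Atp5sl). Positions and promoters are RefSeq's (GRCm38.p6), and lengths the median principal transcript of GENCODE M21. Genes named are members that pass, or the 3 of smallest p in each comparison, the isoform sets and core subunits of each complex, the members of highest and lowest level, and any pathway gene that passes (1 member of the rule is not reported here); further members were named for their spread or lack of overlap after their values were seen. The members and lists were chosen with earlier results of these data known. The alternatives were other scalings (median-of-ratios, quantile, without the 4 most abundant rows), pseudocounts of 0.25 and 4, no filter or a filter at 5 units, no sex term, a replicate block, array weights, plain eBayes, only the groups compared, and leaving out each library.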

Additional observations from a re-analysis of the deposited data

Results flagged for a closer look

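Within groups of 4 libraries, 1 library stood far from the other 3 in 13 of 105 combinations of gene and group checked. For independent, normally distributed values about 1 in 20, or 5.25, would be flagged. The members vary together in the same libraries and were checked in untransformed units, so 13 cannot be read as an excess over 5.25. The measure was the gap to the nearest library divided by the range of the group, set against Dixon's 95% critical value.

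HT replicate 2 and CON replicate 1 were high for the heart-type genes of complex IV. Cox6a2 was at 31.6 units in CON replicate 1, with the other CON libraries at 4.80 to 5.09, and at 117 in HT replicate 2, with the others at 0.294 to 12.4. Cox7a1 was at 10.1 in CON replicate 1 (others 0.588 to 1.76) and at 19.4 in HT replicate 2 (others 0.686 to 1.57). Cox8b was at 13.0 in CON replicate 1 (others 0.392 to 1.96) and at 26.6 in HT replicate 2 (others 0 to 2.74). Ndufa4l2 was at 0.196 in HT replicate 2 and at 0 in the other HT libraries, all at the bottom of the scale.

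HC replicate 4 was low for broadly expressed members. Cox5a was at 13.7 units there (others 34.7 to 38.4), Cox7b at 18.1 (57.8 to 61.2), Sdhb at 11.2 (28.5 to 30.8), Sdhc at 9.89 (34.5 to 38.7) and the Rieske protein gene Uqcrfs1 at 8.23 (17.8 to 18.9). The testis form Cox6b2 was at 3.13 units in HC replicate 1, with the other HC libraries at 0.882 to 0.980.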

How the results depend on the processing

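The depth of the libraries is unknown, and values near 0.196 units are a deposited 2, so differences of the lowest members carry little precision. The count of members passing stayed at 0 in every alternative for HC against CON, HC/HT against HC, HC/HT against HT, the interaction and knockout against intact. It changed in the other 3 comparisons, and all members that then passed were lower. With array weights, 11 members passed for the transgenic groups against the others (2089 genes in all), 1 for hypertension alone (HT against CON; Sdha, -1.02, limma adjusted p 0.0489) and 1 for the combined model against CON (Sdha, -1.13, limma adjusted p 0.031). With only CON and HT in the fit, 1 member passed among 217 genes in all (Atp5l, -1.30, limma adjusted p 0.0416). Leaving out 1 library gave 0 to 1 members for the transgenic groups, the 1 being Sdha without HC replicate 4 (519 genes in all), and 0 in the other comparisons. The cause of these changes was not tested.

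With the replicate number as a term (replicate block), 13 members passed for the transgenic groups against the others, among 768 genes, Sdha with -0.91 (limma adjusted p 0.0181). Likeness by number was weak over pairs of libraries. Deviations from the group means correlated above 0.1 in 8 of 21 same-number pairs (-0.12 to 0.27, median 0.07). Other pairs had a median of -0.07, and 4 of 15 libraries matched best with their own number. The members' sum did go with the number: in every group replicates 1 and 2 lay above replicate 3 and, outside HC/HT, replicate 4. What libraries of the same number share was not tested.

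Leaving out 1 library moved the median difference of the members between -0.45 and 0.43 in HC against CON, -0.87 and -0.21 in HT against CON, and -0.97 and 0.04 for the combined model against CON. It moved between -0.89 and 0.10 for the combined model against HC, and between -0.41 and 0.67 against HT. The ranges were -0.38 to 0.65 for the interaction, -0.22 to 0.33 for knockout against intact and -0.78 to -0.24 for transgenic against not. The sign of the median changed in every comparison but HT against CON and transgenic against not. The standard deviation of the members' median level between replicates was 0.871. Leaving out 1 library moves a group mean by only part of that library's deviation, so shifts below 0.871 say little about stability. Apoe kept its direction, at -6.22 to -5.59 without 1 library and -5.95 with median-of-ratios scaling. Chosen after seeing the data, leaving out HT replicate 2 and CON replicate 1, or the 3 libraries with the largest share of the 4 most abundant rows, gave 0 members in every comparison.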
